A study of Homo sapiens with 9 samples.

Results

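The 41 genes described here encode parts of the primary cilium and proteins whose loss causes polycystic disease, and they were measured in H69 cells, a human cholangiocyte line immortalized with SV40 large T antigen. The members were chosen by name, as genes of the cilium and of polycystic disease, and all 41 were matched to 1 gene identifier each among the 61541 in the tables. Cells grew for 48 h to confluence before treatment, and medium and treatments were renewed once, 24 h after the start. The 3 control libraries (Ctrl) came from cells given 10 µl DMSO, the 3 acetazolamide libraries from cells given 10 µM acetazolamide, an inhibitor of carbonic anhydrases, for 48 h, and the 3 laminin 511-E8 libraries from cells given 0.25 µg/cm2 of the recombinant integrin-binding fragment of laminin 511 for 48 h. The labels give the cells of every group as wild type and name DMSO for the controls only. All libraries came from this 1 line, so the replicates measure the spread between cultures of a single line and not between people.

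The primary cilium is a single antenna of microtubules that grows from the mother centriole, and on cholangiocytes it reaches into the bile duct, where it senses flow, osmolality and solutes of bile. It is built by intraflagellar transport (IFT), in which the IFT-B complex and a kinesin carry cargo outward and the IFT-A complex and a dynein carry it back. The BBSome sorts membrane proteins in and out of the cilium, and the transition zone at its base, formed by the MKS and NPHP modules, acts as the gate. Loss of polycystin-1 (PKD1) or polycystin-2 (PKD2) causes dominant polycystic kidney and liver disease, loss of fibrocystin (PKHD1) causes the recessive form, and loss of transition zone genes can malform the bile ducts.

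Promoter sequences are given first because RFX factors, which drive many ciliary genes, bind an X-box made of an inverted pair of arms. RefSeq promoters on GRCh38.p14, 250 bases before to 50 after a start, were matched for 37 members in 44 windows of 300 bases. The arm GTTGCC, searched on both strands, was present in 17 of 44 windows (38.6%) and in 12.2% of all 35116 promoters of the same length. The X-box consensus, with up to 3 bases between the arms, was present in 5 of 44 windows (11.4%) and in 1.31% of all promoters, and the same window can hold both motifs. The median GC content of the windows was 62.2% for the members and 58.7% for all promoters. A match is a run of letters and no measurement of binding. The 5 matches, in the direction of the gene and with the X-box in capitals, were:
IFT57: tccggtgGTCGCCTGGTAACcggtcgt
IFT122: catgtacGTTGCCAGGGGTAACgcaggta
TCTN1: tgtcgcgGTTGCCGGGCAACgcgctgt
B9D2: gcctgctGTTGCCCCAGCAACaaccacg
B9D1: tgggactGTTACCTTGGCTACtggctcc
The run of IFT57 lay at chr3:108222408-108222434 on the minus strand, that of IFT122 at chr3:129440205-129440233 on the plus strand, and that of TCTN1 at chr12:110614122-110614148 on the plus strand. The run of B9D2 lay at chr19:41364137-41364164 and that of B9D1 at chr17:19378086-19378113, both on the minus strand. With the start counted as 0, the X-box of B9D1 lay upstream, from base -193 to -180, and those of the other 4 genes reached the start or passed it, as in TCTN1, where it ran from base 0 to 12. These genes serve the outward train (IFT57), the return train (IFT122) and the MKS gate (TCTN1, B9D1, B9D2).

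H69 cells carried transcripts of nearly the whole ciliary machine at moderate levels. In each of the control libraries, 40 of the 41 members reached 10 counts, the exception being PKHD1. Levels per length are given as TPM, the counts divided by the exon length of the gene and scaled to the same total in every library. The median of these 40 members was 11.5 TPM, against 15.8 TPM for all 13650 genes that reached 10 counts in each of them, and 16 of the 40 lay above that median gene. The levels spanned 1.07 to 62.9 TPM, with 33 members between 5 and 50 TPM. All members together took 0.120% to 0.139% of the counts of a library. Total counts ranged from 12529867 to 39518899, and a count of 0 allowed up to 3 counts, that is 0.0974 to 0.239 CPM (counts scaled to the same total in every library, without regard to length) in the controls. Such limits cover counting error only. In bulk RNA, fewer cells with a transcript and less of it per cell cannot be told apart.

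**Figure D1:**
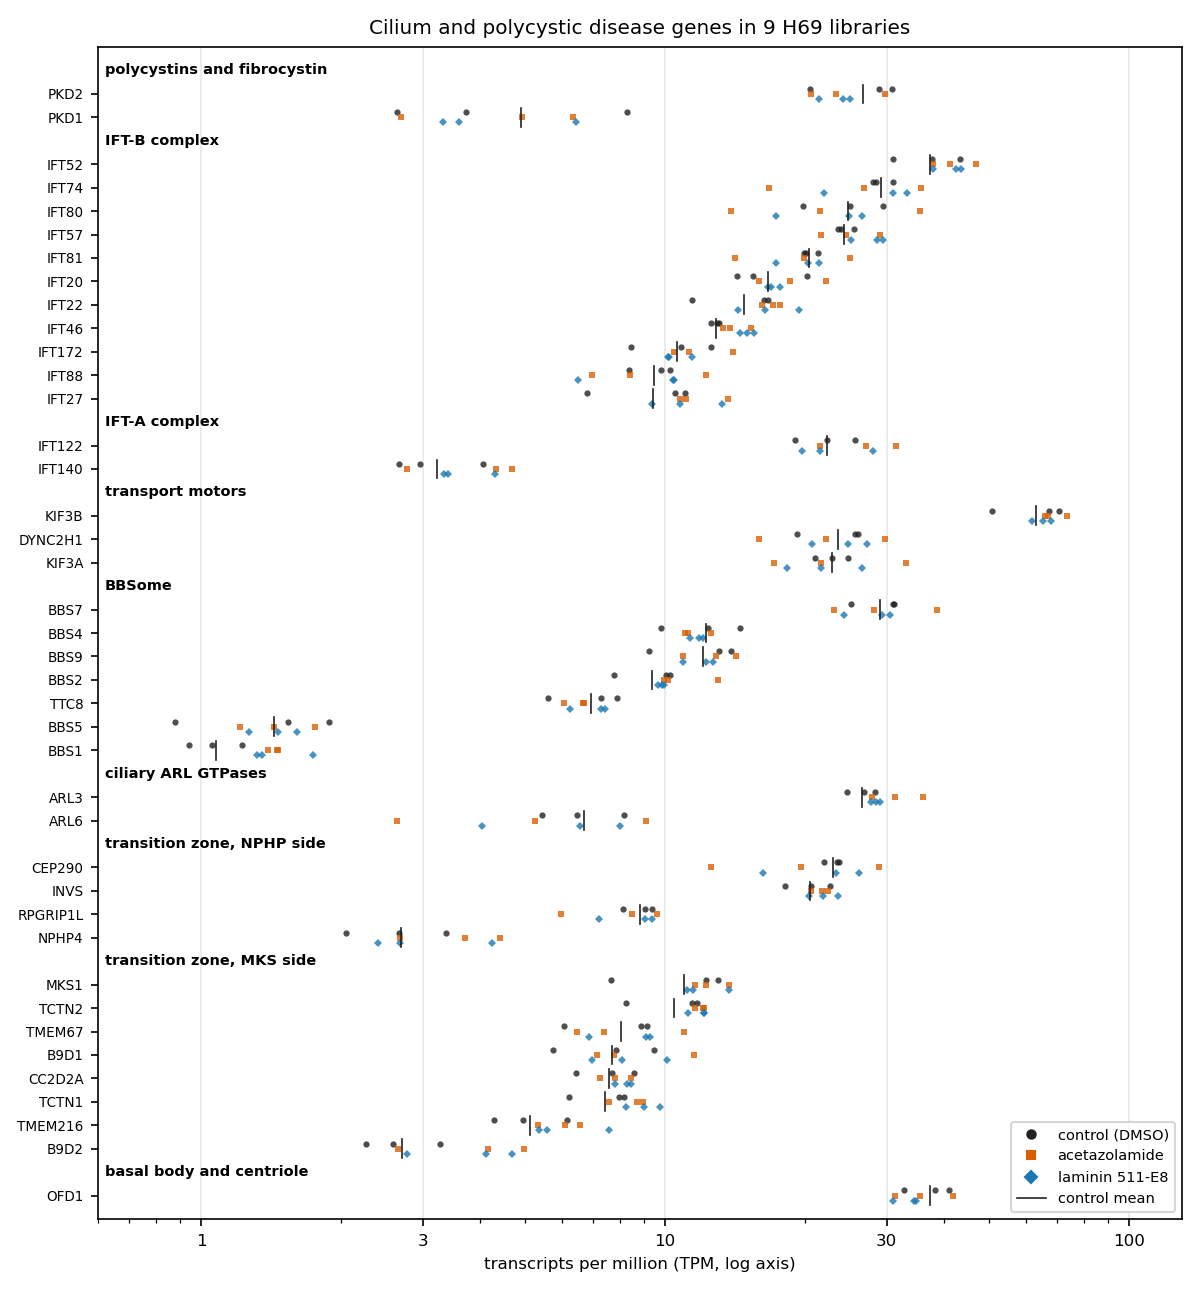
Level of the 40 members that reached 10 counts in each control library, grouped by role, with 1 point for each of the 9 libraries and a bar at the control mean. The horizontal axis is the level in TPM on a log scale. The motor KIF3B stood highest at 62.9 TPM and BBS1 lowest at 1.07 TPM, and the 3 groups of points overlapped for most genes.

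The polycystins were both transcribed and fibrocystin was at or near 0 (plot of PKD1, PKD2 and PKHD1). PKD2, a calcium-permeable channel on chromosome 4 (88007668 to 88077777, GRCh38), reached 26.7 ± 5.47 TPM (SD, n = 3) in the controls. This was rank 6 of the members by all exons and rank 12 by the longest transcript. PKD1, its large receptor-like partner on chromosome 16 (2088710 to 2135898), reached 4.88 ± 2.98 TPM (SD, n = 3). Per length, PKD2 exceeded PKD1 in all 9 libraries, by 3.26 to 11.0 times by all exons and by 2.71 to 9.13 times by the longest transcript. PKHD1, on chromosome 6 (51615300 to 52087625), had 0 counts in each of the 3 control libraries, 2, 0 and 1 counts with acetazolamide and 0, 2 and 1 counts with laminin 511-E8. Every library was thus at or below the 3 counts that a count of 0 allows, and no difference in PKHD1 was detectable at this depth.

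PKD1 varied most of the 40 members between the control libraries. It had 649, 331 and 570 counts in Ctrl, 999, 372 and 628 with acetazolamide and 369, 811 and 775 with laminin 511-E8. Scaled for library size and composition by TMM, these were 21.4, 19.2 and 44.7 CPM in Ctrl, 28.0, 15.0 and 36.8 CPM with acetazolamide and 21.3, 37.1 and 20.3 CPM with laminin 511-E8. The highest library was replicate 3 in Ctrl and with acetazolamide and replicate 2 with laminin 511-E8, and the 3 groups overlapped. The coefficient of variation over the control libraries, on CPM, was 53.5% for PKD1 and 10.2% for the median member, against 11.3% for the median of all 13650 genes. PKD1 has several near-identical pseudogenes nearby, and the 7 rows named for them held 478 counts beside 5504 for PKD1, so that its level is uncertain where reads could not be assigned. Its exons also share 778 bases with TSC2 on the opposite strand, and no source used here gives the strand setting of the counts.

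**Figure D2:**
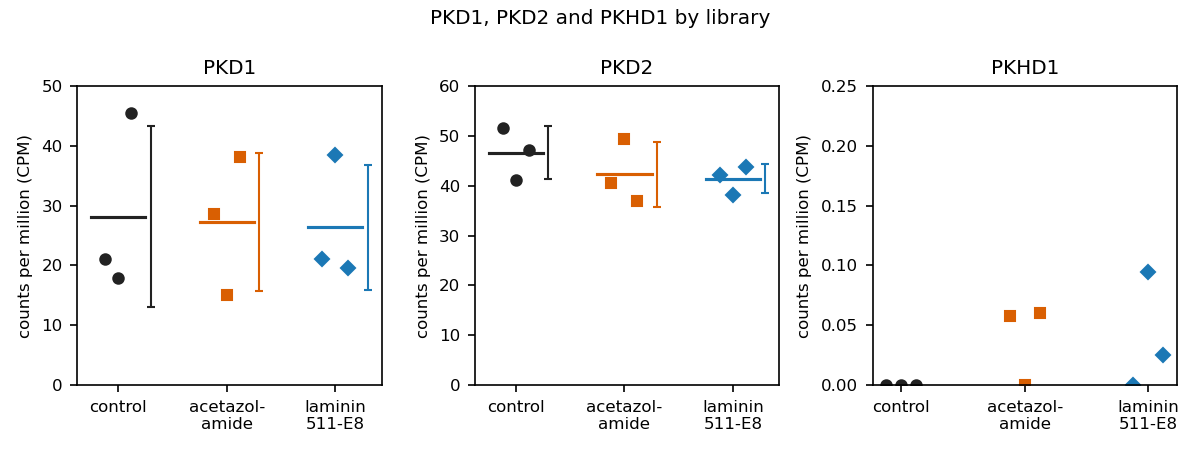
CPM of PKD1, PKD2 and PKHD1 in each of the 9 libraries, with 1 panel for each gene and vertical axes of different scale that start at 0. Horizontal bars are group means and whiskers are SD (n = 3). PKHD1 has no bars because all libraries held 2 counts or fewer. In PKD1, 1 library of each group lies far above the lowest, whereas PKD2 is tighter.

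Of the 3 motor genes, KIF3B stood at the top of the order and the other 2 lower. KIF3B, a motor subunit of kinesin-2 (chromosome 20, 32277664 to 32335011), had 70.8, 50.8 and 67.2 TPM in the controls, above every control library of the next gene in the order. KIF3A, with which it forms the dimer, stood at 22.9 TPM, and KIF3A was 0.234 to 0.494 times KIF3B per length over the 9 libraries. By the longest transcript this ratio was 0.254 to 0.536. DYNC2H1, the heavy chain of the return dynein, stood at 23.6 TPM. OFD1, a protein of centriole ends and satellites, came next to KIF3B with 38.1, 32.7 and 41.0 TPM.

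The 11 IFT-B genes ranged from 9.43 TPM (IFT27) to 37.2 TPM (IFT52), a spread of 3.95 times. IFT52, a core subunit, had 43.1, 31.0 and 37.5 TPM in the controls, and IFT74, which binds tubulin together with IFT81, had 28.5, 30.9 and 28.0 TPM. The ratio of IFT74 to IFT81 lay between 1.18 and 1.64 in the 9 libraries. It depended on the length used, since with the longest transcript in place of all exons it ran from 0.878 to 1.22. Of the 2 IFT-A genes, IFT122 stood at 22.3 TPM and IFT140 at 3.23 TPM, and IFT122 exceeded IFT140 by 5.92 to 7.75 times in every library. With the longest transcript it did so by 8.12 to 10.6 times. IFT80 lies against the abundant SMC4 on the opposite strand, with 607 shared exon bases and 308586 counts for SMC4 beside 11989 for IFT80, so that its level is uncertain. IFT80 also shares 1953 exon bases, 27.2% of its exons, with a gene on its own strand that had 9 counts. On the opposite strand, IFT20 shares 361 exon bases with TMEM97 (25684 counts beside 3947). IFT74 shares 272 exon bases with PLAA, also on the opposite strand (18011 counts beside 8032). The levels of IFT20 and IFT74 are likewise uncertain.

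Among the roles whose members all reached 10 counts in each control library, the BBSome was the most uneven. Its 7 subunits ran from 1.07 TPM (BBS1) to 29.1 TPM (BBS7), a spread of 27.1 times. BBS1 (chromosome 11, 66510606 to 66533627), the subunit that binds the GTPase ARL6, had 1.06, 0.941 and 1.22 TPM in the controls, and BBS5, which binds phosphoinositides, had 1.54, 0.879 and 1.89 TPM. BBS1 shares 3311 exon bases, 53.9% of its exons, with a read-through gene on its own strand that had 0 counts. It also shares 759 with ZDHHC24 on the opposite strand. BBS5 shares 998 exon bases, 21.9% of its exons, with a further gene on its own strand that had 0 counts. The levels of BBS1 and BBS5, and with them the spread of 27.1 times, are uncertain where reads could not be assigned. ARL6, which recruits the BBSome to membranes, stood at 6.68 TPM, and ARL3, which releases lipid-modified cargo inside the cilium, at 26.6 TPM.

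The gate was transcribed more evenly. The 8 genes of the MKS side lay between 2.71 TPM (B9D2) and 11.0 TPM (MKS1), and 6 of them between 7.43 and 11.0 TPM. B9D2, a small lipid-binding-domain protein of the gate, had 2.26, 2.59 and 3.27 TPM in the controls, from only 16 to 28 counts. On the NPHP side, CEP290, which links the microtubules to the membrane, stood at 23.1 TPM and INVS (inversin) at 20.5 TPM, while NPHP4, a scaffold, had 2.67, 2.05 and 3.37 TPM. Over the whole order of 41 members, neighbours were separated in all control libraries at 4 of 40 steps, namely KIF3B above OFD1, IFT52 above IFT74, NPHP4 above BBS5, and BBS1 above PKHD1. At the other 36 steps the control libraries overlapped, so that the order within the middle is not resolved. The order also depended on the length used. With the longest transcript in place of all exons, OFD1 went from rank 2 to 6 and IFT122 from rank 13 to 4, while KIF3B stayed at rank 1.

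Laminin 511-E8 was compared with Ctrl to ask what the matrix fragment does to these cells. No member passed the test, and no fold change reached 0.5 on the log2 scale. With edgeR's quasi-likelihood test and Benjamini-Hochberg adjustment over 15997 genes, 0 of 40 members passed an adjusted p of 0.05, as did 0 of all genes (0.0%). At an unadjusted p under 0.05, 1 member and 454 genes (2.84%) were found. DESeq2 called 0 members and 21 genes, and limma voom called 0 members and 0 genes. The log2 fold changes were positive for 23 members and negative for 17, with a median of 0.03, and ran from -0.20 for PKD2 to 0.47 for B9D2. The 95% intervals of 39 members lay within 1 of 0 on the log2 scale, the exception being B9D2, and those of 21 members lay within 0.5.

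**Figure D3:**
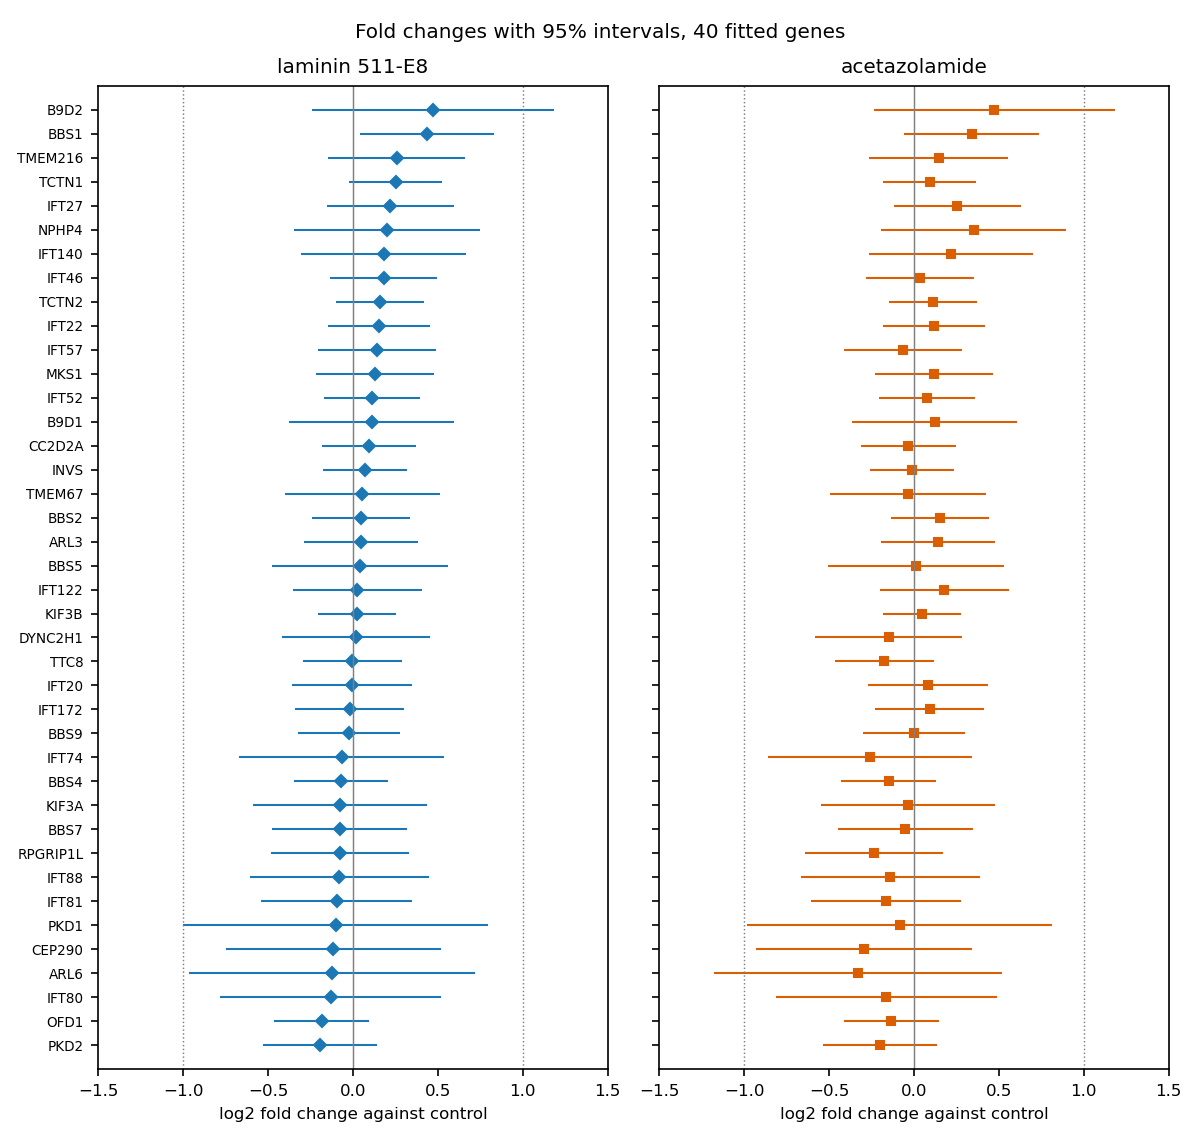
Log2 fold change against control for the 40 members in the fit, with 95% intervals as lines, for laminin 511-E8 (left) and acetazolamide (right). Genes are in the order of the laminin 511-E8 values, solid lines mark 0 and dotted lines mark 1 and -1. The intervals of all members but BBS1 with laminin 511-E8 span 0. Both panels use the same 3 control libraries.

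BBS1 had the smallest p of the members with laminin 511-E8. It had 2.01, 2.27 and 2.2 TMM-scaled CPM in Ctrl and 2.59, 3.34 and 2.75 with laminin 511-E8. All laminin 511-E8 libraries were above all controls, on 28 to 61 counts per control library. The log2 fold change was 0.44 (SE 0.18), with an unadjusted p of 0.0333 and an adjusted p of 1.0 by edgeR. It also stood at 2.63, 2.71 and 2.81 with acetazolamide, for a log2 fold change of 0.34 (SE 0.18) against the same controls, so the 2 comparisons are not independent.

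TCTN1, a tectonic of the transition zone (chromosome 12, 110614027 to 110649430), had 23.7, 23.4 and 22.8 TMM-scaled CPM in Ctrl and 29.9, 24.7 and 28.6 with laminin 511-E8. Its groups did not overlap, and the log2 fold change was 0.25 (SE 0.12, edgeR adjusted p 1.0). OFD1 went the other way, with 61.0, 66.2 and 61.9 in Ctrl and 57.3, 50.2 and 58.8 with laminin 511-E8, a log2 fold change of -0.18 (SE 0.13, edgeR adjusted p 1.0). B9D2 had 0.922, 1.34 and 1.25 in Ctrl and 1.73, 1.92 and 1.21 with laminin 511-E8, so that its groups overlapped at a log2 fold change of 0.47 (SE 0.32). Groups without overlap were found for 3 members above the controls (BBS1, TCTN1 and TCTN2), where 4.69% of all genes lay above, and for 2 below (BBS4 and OFD1), where 3.96% of all genes lay below. The shares of members, 7.50% and 5.00%, rest on 3 and 2 genes.

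By role, all 8 genes of the MKS side had positive log2 fold changes with laminin 511-E8, from 0.06 to 0.47, with a median of 0.15 beside -0.00 for all genes tested. None of the 8 passed. The count was 8 of 8 in 17 of the 20 other settings and 7 of 8 in the other 3, which left out a laminin 511-E8 library each. These settings reuse the same libraries, and the 8 genes share the same controls, so this count is no separate evidence. The 11 IFT-B genes had 5 positive values and a median of -0.01, the 7 BBSome genes had 3 and a median of -0.00, and the 3 motors lay between -0.07 and 0.02. PKD2 had 52.4, 44.1 and 46.3 TMM-scaled CPM in Ctrl and 42.5, 36.9 and 45.4 with laminin 511-E8, which overlap, at -0.20 (SE 0.15). PKD1 was at -0.10 (SE 0.40), and its sign turned when Ctrl replicate 3 (0.36) or laminin 511-E8 replicate 3 (0.07) was left out.

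Acetazolamide was compared with Ctrl for the same genes. No member passed by edgeR (0 of 40, against 0.0% of all genes), and 0 members were below an unadjusted p of 0.05, against 292 genes (1.83%). DESeq2 called 0 members and 7 genes, and limma voom 0 and 0. The log2 fold changes were positive for 20 members and negative for 20, with a median of 0.00, and ran from -0.33 for ARL6 to 0.47 for B9D2. The 95% intervals of 38 members lay within 1 of 0, the exceptions being ARL6 and B9D2. Groups without overlap were found for 2 members above the controls (BBS1 and TCTN2, against 3.21% of all genes) and 1 below (TTC8, against 2.10%).

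By role, 6 of the 8 MKS genes had positive log2 fold changes, with a median of 0.11, and so had 6 of the 11 IFT-B genes and 3 of the 7 BBSome genes, with medians of 0.03 and -0.00. These values share the control libraries with those of laminin 511-E8. The members with the smallest p under acetazolamide were BBS1, IFT27, B9D2 and NPHP4. IFT27, a small GTPase of IFT-B that helps the BBSome leave the cilium, had 27.3, 21.3 and 24.5 TMM-scaled CPM in Ctrl and 27.4, 26.0 and 34.4 with acetazolamide, a log2 fold change of 0.26 (SE 0.17). NPHP4 had 10.9, 10.6 and 12.9 in Ctrl and 15.0, 10.6 and 18.2 with acetazolamide, at 0.35 (SE 0.24). B9D2 had 1.68, 1.05 and 2.05 with acetazolamide, at 0.47 (SE 0.32). The highest acetazolamide value of each of these 3 genes was in replicate 3, and the acetazolamide and control libraries overlapped in all 3. TTC8, a BBSome subunit, had 14.1, 13.7 and 14.3 in Ctrl and 12.8, 12.6 and 11.9 with acetazolamide, at -0.17 (SE 0.13). PKD2 was at -0.20 (SE 0.15) and PKD1 at -0.08 (SE 0.40), and the sign of PKD1 turned when Ctrl replicate 3 (0.36) or acetazolamide replicate 2 (0.20) was left out.

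Laminin 511-E8 and acetazolamide were also compared with each other. By edgeR 0 of 40 members and 0.0% of all genes passed, and 0 members and 374 genes (2.34%) had an unadjusted p under 0.05. DESeq2 called 0 members and 19 genes, and limma voom 0 and 0. The values ran from -0.15 for IFT122 to 0.21 for IFT57, with a median of 0.03, and the intervals of 39 members lay within 1 of 0, the exception being ARL6. IFT57, an outer subunit of IFT-B, had 28.4, 32.9 and 25.6 TMM-scaled CPM with acetazolamide and 35.4, 29.5 and 35.7 with laminin 511-E8, at 0.21 (SE 0.15). ARL6, IFT74 and CEP290 followed in size at 0.20, 0.19 and 0.18. Next to IFT57, the smallest unadjusted p-values were those of TTC8 at 0.17, TCTN1 at 0.16 and IFT46, another IFT-B subunit, at 0.15. IFT46 had 15.6, 15.9 and 18.4 with acetazolamide and 18.9, 17.3 and 18.9 with laminin 511-E8, which overlap. No member separated the 2 groups, where 3.01% of all genes lay above and 3.11% below.

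Between the 2 replicates of each group with the most unlike GC slopes, the differences followed the GC content of the members (plot of library differences against GC content). In acetazolamide replicate 3, all 12 members with a GC content of 50% or more stood above replicate 2, by a median of 0.54 on the log2 scale, whereas 7 of the 28 members under 50% did so, with a median of -0.35. Over the 40 members the difference had a Pearson r of 0.90 and a Spearman rho of 0.91 with GC content, as a description across genes that share the same libraries. In laminin 511-E8 replicate 2 against replicate 3, the members above were 12 of 12 and 5 of 28 members, with an r of 0.91. In Ctrl replicate 3 against replicate 1 they were 10 of 12 and 6 of 28, with an r of 0.74. Each pair given held the highest and the lowest GC slope of its group over all genes in the fit. Per 10 points of GC, these log2 slopes were 0.36 and -0.26 for acetazolamide replicates 3 and 2. They were 0.24 and -0.16 for laminin 511-E8 replicates 2 and 3, and 0.06 and -0.12 for Ctrl replicates 3 and 1. The trend was thus not particular to the members. It did not cover all of the spread in Ctrl. Over all genes, replicates 1 and 3 differed least there, with a chi-square over degrees of freedom of 13.4. That of replicate 2 was 35.8 against replicate 1 and 35.1 against replicate 3. Over the members, Ctrl replicates 1 and 2 had like GC slopes, -0.16 and -0.17 per 10 points. What set Ctrl replicate 2 apart was not tested.

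**Figure D4:**
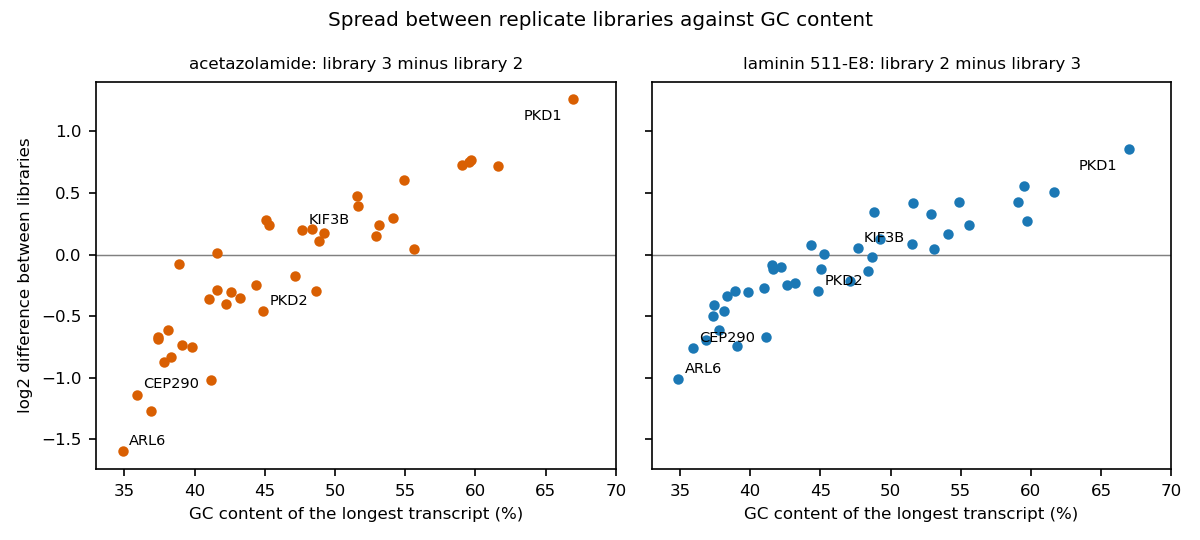
Difference between replicate libraries, on log2 TMM-scaled CPM, against GC content of the longest transcript for the 40 members, within the acetazolamide group (left) and the laminin 511-E8 group (right). Each point is a gene. Points rise from ARL6 at 34.9% GC to PKD1 at 67.0% GC in both panels.

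The extremes of these differences, in the acetazolamide pair and in the laminin 511-E8 pair, were ARL6 and PKD1. ARL6 had 351, 167 and 110 counts in Ctrl, 263, 310 and 65 with acetazolamide and 166, 126 and 462 with laminin 511-E8. On TMM-scaled CPM its difference between acetazolamide replicate 3 and replicate 2 was -1.60 on the log2 scale, while that of PKD1 in the same pair of libraries was 1.26. Among these members the largest differences between replicates thus exceeded every fold change between groups, but the 2 measures are unlike. The former compare single libraries with the most unlike GC slopes of their group, and the latter compare groups of 3 libraries.

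With the GC trend of each library removed, the intervals narrowed and still no member passed. All 40 intervals lay within 1 of 0 in each comparison, and 37, 35 and 36 lay within 0.5 for laminin 511-E8 against Ctrl, acetazolamide against Ctrl and laminin 511-E8 against acetazolamide. By edgeR, 0 members passed in each, against 47 genes of 15737 (0.299%), 0 genes (0.0%) and 25 genes (0.159%). At an unadjusted p under 0.05 there were 4 members in the first comparison, against 7.52% of all genes, 3 in the second, against 4.29%, and 0 in the third, against 5.33%. For laminin 511-E8 these were OFD1 at -0.19 (SE 0.07, edgeR adjusted p 0.464), PKD2 at -0.22 (SE 0.09), TCTN1 at 0.21 (SE 0.09) and BBS1 at 0.38 (SE 0.17). For acetazolamide they were BBS2, a core BBSome subunit, at 0.22 (SE 0.09, edgeR adjusted p 0.944), PKD2 at -0.21 (SE 0.09) and NPHP4 at 0.24 (SE 0.11).

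Of 108 further genes of the cilium and its signalling, listed by role, 93 entered the fit, and 0 passed in any of the 3 comparisons, with or without the GC trend. At an unadjusted p under 0.05 there were 2 with laminin 511-E8 against Ctrl, 0 with acetazolamide and 1 between the treatments. The remaining subunits of the transport trains and motors were led by WDR34 at 53.5 ± 21.9 TPM (SD, n = 3), and 16 of 17 entered the fit, with the smallest p in CLUAP1 and WDR35. Summed, this list took 444 to 457 CPM in Ctrl, 435 to 489 CPM with acetazolamide and 468 to 471 CPM with laminin 511-E8. All laminin 511-E8 libraries were above all controls, with an exact two-sided permutation p of 0.1, the smallest that 3 against 3 allows, and 0.85 after adjustment over 51 comparisons of summed lists. No summed list could thus pass 0.05 by this test, which decides nothing about these sums. Chaperonins of the BBSome, which fold its subunits, were led by BBS10 at 35.8 ± 3.51 TPM, and other gate genes by TCTN3 at 52.8 ± 10.0 TPM. The appendage and initiation list, with which the mother centriole docks at the membrane, was led by RAB11A at 86.4 ± 14.7 TPM, and the list for lipid-modified cargo by ARL2BP at 57.5 ± 9.76 TPM. Polycystic liver and kidney disease genes outside the cilium, many of which process glycoproteins in the endoplasmic reticulum, were all present, with GANAB at 306 ± 71.8 TPM.

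The sensors of the cholangiocyte cilium were mostly at or near 0 counts. P2RY12, the purinergic receptor of the ciliary membrane, had 0 counts in all 9 libraries, and of the 8 genes listed only 2 entered the fit. TRPV4, the osmosensor, had at most 7 counts in a library, and GPBAR1, the bile acid receptor, at most 1. ADCY6, an adenylyl cyclase, stood at 22.8 ± 6.86 TPM (SD, n = 3) and its anchor AKAP5 at 7.90 ± 1.04 TPM. Their log2 fold changes with laminin 511-E8 were -0.03 and -0.27, without passing.

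Hedgehog signalling, which runs through the cilium in vertebrates, was represented by its receptor and transducer genes, with its targets at low levels. EVC stood highest at 20.6 ± 4.20 TPM, the activator SMO at 12.7 ± 4.46 TPM and the transcription factor GLI3 at 16.7 ± 3.05 TPM. The targets GLI1 and HHIP were at 1.00 ± 0.27 and 0.07 ± 0.02 TPM. GLI3 was at -0.27 with laminin 511-E8 (unadjusted p 0.0337, edgeR adjusted p 1.0). Of the 14 transcription factors listed for ciliogenesis, RFX5 was the most abundant at 42.2 ± 5.85 TPM, and its part in ciliogenesis was not tested. RFX2 and RFX3 stood at 3.61 ± 0.65 and 3.18 ± 0.73 TPM, while FOXJ1 and RFX4 had 0 counts in all 9 libraries.

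Of 8 genes that take the cilium down before division, all entered the fit, at 11.1 to 255 TPM in the controls. AURKA, the kinase that starts resorption, stood at 255 ± 40.8 TPM. KIF2A, PLK1 and NEK2 stood at 99.8, 96.6 and 96.3 TPM, and KIF24, HDAC6, DVL2 and NEDD9 at 25.4, 24.3, 22.9 and 11.1 TPM. NEDD9, its activating scaffold, was at -0.33 with laminin 511-E8 (unadjusted p 0.0107, edgeR adjusted p 1.0). The 6 markers of cycling cells together took 4255 to 4425 CPM in Ctrl, 4111 to 4693 CPM with acetazolamide and 4236 to 4615 CPM with laminin 511-E8, with TOP2A at 864 ± 138 TPM. Cells with and without a cilium were not counted here, and the share of either cannot be read from these levels.

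The cholangiocyte label was checked against markers of these cells. KRT7, KRT19 and EPCAM stood at 1025, 811 and 118 TPM in the controls and CD24 at 1170 TPM, whereas SPP1 had 0 counts in all 9 libraries and CFTR at most 2 counts in a library. Whether these low counts belong to the line or to the counting of reads was not tested. The summed markers took 3312 to 3975 CPM in Ctrl, 3322 to 4123 CPM with acetazolamide and 2852 to 3292 CPM with laminin 511-E8. The laminin 511-E8 libraries were below all others, with an exact two-sided permutation p of 0.1 and 0.85 after adjustment, as for the transport list above. Once the GC trend was removed, KRT19 was the only cholangiocyte marker that passed by edgeR. It did so with laminin 511-E8 against Ctrl and against acetazolamide, so the level of this marker was not the same in all groups. The 10 hepatocyte markers summed to 20.1 to 24.6 CPM in Ctrl, 17.8 to 26.8 CPM with acetazolamide and 25.2 to 35.0 CPM with laminin 511-E8 (exact two-sided permutation p of 0.1 against Ctrl, adjusted 0.85). SERPINA1 led them at 14.5 ± 3.11 TPM and was the only one in the fit, while TTR and APOA1 had 0 counts in all 9 libraries and ALB at most 1. The leukocyte markers summed to 0.229 to 0.488 CPM. The mesenchymal markers summed to 634 to 693 CPM in Ctrl, 587 to 763 CPM with acetazolamide and 719 to 836 CPM with laminin 511-E8 (exact two-sided permutation p of 0.1 against Ctrl, adjusted 0.85), led by VIM, with COL3A1 and LUM at 0 in all 9 libraries. The endothelial markers summed to 2.06 to 2.44 CPM in Ctrl, 2.61 to 3.03 CPM with acetazolamide (the same p and adjusted p) and 2.06 to 3.42 CPM with laminin 511-E8, with CDH5 and EMCN at 0 in all 9 libraries. The part of these lists in the values of the cilium genes was not tested.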

How the data were processed

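Poly(A) RNA of H69 cells was sequenced in 9 libraries. The authors deposited raw counts per gene, for which the submitters' processing notes name GRCh38, HTSeq 0.11.0, HISAT2 2.2.1, Trimmomatic 0.39 and FastQC 0.11.9. No annotation release, strand setting or multi-mapping setting was given in the sources used here. Members and lists were chosen with earlier results of these data known. TPM used union exon lengths of GENCODE release 29. The test was edgeR 4.0.16 under R 4.3.3 (TMM, filterByExpr, robust quasi-likelihood, all 9 libraries, 15997 genes, threshold 0.05), with the 95% interval from the t distribution. Alternatives were DESeq2 1.42.0, limma 3.58.1 voom, RLE and upper-quartile scaling, the legacy fit, other filters, the 6 libraries compared, a replicate block, GC correction (loess, span 0.3), both together, a threshold of 0.01, and leaving out each library. Scripts were tested on simulated data. Members named are the polycystins and fibrocystin, the 4 highest and 4 lowest by TPM, and the 4 with the smallest p in each comparison. ARL6, BBS2, BBS4, TCTN2 and other members beyond this rule, and genes given in the lists beyond their leading and smallest-p genes, were named after their values were seen. Some genes of the lists are not reported here. Replicate libraries differed by more than sampling noise (chi-square over degrees of freedom 4.77 to 90.8). Python 3.11.15, pandas 2.3.3, SciPy 1.17.1 and matplotlib 3.10.9 were used for levels, promoters and plots.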

Additional observations from a re-analysis of the deposited data

How the results depend on the processing

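No member passed under any alternative run. The number of genes passing for laminin 511-E8 against Ctrl was 21 with DESeq2 and 47 with the GC correction, for acetazolamide against Ctrl 7 with DESeq2, and for laminin 511-E8 against acetazolamide 19 and 25, whereas the other fits, including those without each library in turn, called 0. With CPM of the total count, 5 of 40 members lay above and 1 below the controls for laminin 511-E8, against 5.48% and 3.03% of all genes, and 5 above and 0 below for acetazolamide, against 5.22% and 1.18%. Upper-quartile scaling put the median member at 0.051 for acetazolamide, where the median of all genes was 0.053. The percentile of the median member among genes was 41.7, and 47.7 with the longest transcript and 50.2 by CPM, and 1 of the 4 highest members by TPM was also among the 4 highest by CPM. The PKD1 value turned sign to 0.0062 with the replicate block for laminin 511-E8 against Ctrl, and without each library in turn it ran from -0.44 to 0.36 for laminin 511-E8 and from -0.36 to 0.36 for acetazolamide, turning without Ctrl replicate 3 in both, without laminin 511-E8 replicate 3 and without acetazolamide replicate 2. The labels do not say whether a replicate number pairs libraries. Correlations between same-numbered libraries ran from -0.65 to 0.24, on values that still held the GC trend of each library, so they cannot decide this. The replicate block changed no call of a member (0 members and 0 genes passing in each comparison). With the GC correction and the block together, the genes passing were 0 in each. The cause of these differences was not tested. Depth limits B9D2, BBS1 and BBS5, which had at most 105 counts in a library.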

Other observations

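Among genes of motile cilia in H69 cells, SPAG6 and DNAH11 were the highest of the list. Of 18 markers of multiciliated cells, FOXJ1, the master regulator, and DNAI2, a dynein intermediate chain, had 0 counts in all 9 libraries, 6 markers had at most 3 counts in any library, and 8 entered the fit. DNAH11, an outer arm dynein heavy chain, stood at 18.3 ± 3.89 TPM (SD, n = 3) in the controls, and SPAG6, a protein of the central pair, at 18.8 ± 2.26 TPM, both above the median of the primary cilium genes. Their related genes DNAH5 and DNAH9 stood at 0.29 ± 0.09 TPM and at 0 counts in the controls. None of the markers passed by edgeR in any comparison, and the log2 fold change of DNAH11 was 0.19 and that of SPAG6 -0.14 with laminin 511-E8. The levels are given as values, and their source was not tested.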
